A study of Homo sapiens with 10 samples.

Results

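WNT antagonists are the genes described here, in human embryonic stem cells sorted for 3 surface antigens and in the unsorted culture they came from. The 8 members are FRZB, SFRP1, SFRP2, DKK1, DKK3, DACT1, DACT3 and KREMEN1, found by Ensembl identifier among 55841 rows of a gene count table, and all 8 were among the 23552 genes that passed the filter on low counts. The general population was the culture as grown, without sorting. The fraction called HHH had been sorted for the highest expression of GCTM-2, CD9 and EPCAM, which the study uses to mark cells with high capacity to renew themselves. There were 5 libraries of either kind, 2 in batch 1 and 3 in batch 2, as their titles state. All libraries came from 1 cell line, which the labels call HES9 and the study's text calls WA09, grown in mTESR1 on matrigel, and no label gives a genotype change or a treatment. The deposit's design text mentions protein kinase C inhibitors, and whether any of these libraries was treated is not resolved here. The general population also contained the cells that a sort would have taken as HHH, and it did not pass through the sorter, so selection and the handling of a sort cannot be told apart.

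WNT proteins are secreted lipid-modified ligands that bind Frizzled receptors together with the co-receptors LRP5 and LRP6, which stops the destruction of beta-catenin and lets it act with TCF and LEF factors on target genes. Antagonists act at several levels of this route. Secreted Frizzled-related proteins carry a Frizzled-like cysteine-rich domain and bind WNT ligands outside the cell, Dickkopf proteins such as DKK1 bind the LRP co-receptors, KREMEN1 is a membrane receptor for DKK1, and DACT proteins bind Dishevelled inside the cell. In pluripotent cell cultures the level of WNT signalling is known to influence the balance between self-renewal and mesendoderm differentiation.

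Total counts ranged from 47242595 to 78503395 per library, so that 1 count stood for 0.0153 to 0.0229 CPM and 3 counts, taken as the floor of detection, for 0.0459 to 0.0686 CPM (counting error only). CPM values are relative to library sizes scaled by TMM, a method that equalises most genes between libraries. Libraries of the same population and batch differed beyond sampling noise, with a chi-square of 5.77 to 48.6 times its degrees of freedom. No source states that the replicates were separate cultures, so p-values measure only the spread between these samples, which may be technical. The 10 pluripotent cell markers were counted in every library with summed levels of 4716 to 6212 CPM in general and 4491 to 6130 CPM in HHH. By edgeR, DESeq2 and limma with voom 0 of them were called, though in edgeR 7 had an unadjusted p under 0.05 and 4 an adjusted p under 0.05. NANOG and the sort antigen EPCAM were higher in HHH (log2 0.44 and 0.41) and PODXL and SOX2 lower (log2 -0.40 and -0.26). NANOG and EPCAM passed in 10 of 10 fits that left out a library, PODXL in 3 and SOX2 in 2. The sort antigen CD9 did not pass in the main fit (log2 0.29, adjusted p by edgeR 0.195). Its log2 fold change was -0.10 in batch 1 and 0.54 in batch 2, and with the replicate block it passed (adjusted p 0.0186). In bulk RNA, fewer cells of a type and less RNA per cell cannot be told apart.

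The members separated into a group that was lower in HHH, a group that was higher, and a group without a difference that passed the test. Calls needed both an edgeR adjusted p under 0.05, over all 23552 genes and with batch as a term, and more than a 1.5-fold difference. Of the 8 members 2 were called, where 2.98% of all genes were called. They were FRZB, lower in HHH like 2.34% of all genes, and DACT1, higher like 0.637%. A further 2 passed the adjusted p alone, SFRP1 lower and SFRP2 higher, which makes 4 of 8 where 5.83% of all genes had an adjusted p under 0.05. The study itself names FRZB as lower and DACT1 as higher on these samples, so their directions are not independent evidence. These same 4 members were the ones whose populations did not overlap in either batch, with the same direction in both. Of all genes 9.35% met this condition. FRZB and SFRP1 were lower in this sense, as 5.42% of all genes were, and SFRP2 and DACT1 higher, as 3.93% were. DACT3 had no overlap in either batch too, but HHH was higher in batch 1 and lower in batch 2. The median log2 fold change was -0.25 over the members and 0.016 over all genes.

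The sequence just before the start of transcription is shown for both called members and for DKK1, which holds 2 copies of the motif searched. The motif was CTTTGA, the core letters that TCF and LEF factors recognise, or TCAAAG where it lies on the other strand, and capitals mark it. Of the 35116 RefSeq promoter windows cut to the 250 bases before the start, 11.2% held the motif and 0.977% held it 2 or more times. The table had windows for 5 members, FRZB, SFRP2, DKK1, DACT1 and DACT3. These sequences are from RefSeq (GRCh38.p14), written 5′ to 3′ on the strand of the gene.
FRZB, chr2:182866638-182866887, minus strand: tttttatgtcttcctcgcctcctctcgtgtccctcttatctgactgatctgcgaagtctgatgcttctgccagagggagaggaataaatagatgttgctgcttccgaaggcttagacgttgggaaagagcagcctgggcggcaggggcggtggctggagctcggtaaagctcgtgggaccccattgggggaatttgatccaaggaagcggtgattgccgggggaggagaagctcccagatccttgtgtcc
DACT1, chr14:58637712-58637961, plus strand: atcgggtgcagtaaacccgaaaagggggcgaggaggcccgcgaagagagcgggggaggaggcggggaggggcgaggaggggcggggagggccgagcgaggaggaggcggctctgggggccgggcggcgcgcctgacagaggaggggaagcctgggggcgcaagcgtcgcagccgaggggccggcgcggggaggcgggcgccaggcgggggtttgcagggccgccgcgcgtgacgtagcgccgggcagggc
DKK1, chr10:52314031-52314280, plus strand: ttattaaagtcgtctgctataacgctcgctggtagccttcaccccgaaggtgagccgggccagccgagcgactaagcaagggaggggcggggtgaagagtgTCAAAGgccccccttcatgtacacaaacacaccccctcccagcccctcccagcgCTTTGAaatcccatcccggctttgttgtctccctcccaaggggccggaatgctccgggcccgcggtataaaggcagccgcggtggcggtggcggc
Neither the FRZB window nor the DACT1 window at its canonical start held the motif. In DKK1, which is itself known as a target of beta-catenin, the copies began 149 and 95 bases before the start. A window before an upstream DACT1 start held 1 copy, and the SFRP2 and DACT3 windows held none. A match is a description of the letters in the window and does not show that a factor bound there.

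FRZB, also called SFRP3, is a secreted Frizzled-related protein first known from cartilage. It lies on chr2:182833275-182866637 (GRCh38, GENCODE 44, minus strand; ENSG00000162998). In the general population FRZB stood at 4.06 and 3.87 CPM in batch 1 and at 5.60, 8.47 and 8.93 CPM in batch 2. In HHH it stood at 1.46 and 1.49 CPM in batch 1 and at 1.44, 1.52 and 1.75 CPM in batch 2. All 5 HHH libraries were below all 5 general libraries, and the HHH values of both batches lay close together while the general values of batch 2 all lay above those of batch 1. The general mean of 6.19 ± 2.40 CPM was 4.04 times the HHH mean of 1.53 ± 0.126 CPM (SD, n = 5 for both), and the fitted log2 fold change was -1.97 (SE 0.18, adjusted p by edgeR 1.13e-05). It stayed called with each of the 10 libraries left out in turn. FRZB was also the 1 member called in batch 1 alone (log2 fold change -1.43, adjusted p 0.0287), where 0.573% of all genes were called. In batch 2 alone its log2 fold change was -2.30 (adjusted p 4.56e-06). The difference between the batches did not pass the interaction test (log2 -0.86, SE 0.29, adjusted p 0.15).

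**Figure D1:**
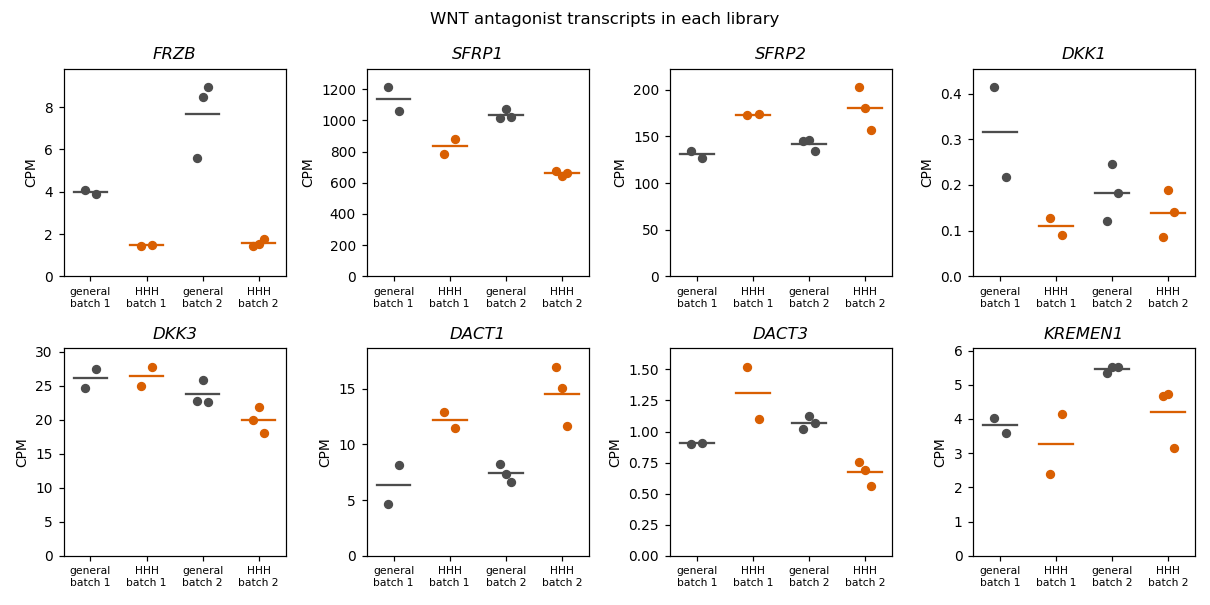
Level of each WNT antagonist in every library, in CPM on a linear axis from 0, by population (general grey, HHH orange) and batch, with a point for each library and a bar at the mean of 2 libraries (batch 1) or 3 libraries (batch 2). FRZB and SFRP1 sit lower and SFRP2 and DACT1 higher in all HHH libraries, while DACT3 is higher in HHH in batch 1 and lower in batch 2.

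SFRP1 is a secreted Frizzled-related protein that can bind WNT ligands and modulate their access to receptors. Its gene is on chromosome 8 (ENSG00000104332, minus strand), and it was by far the most counted member. In the general population SFRP1 stood at 1212 and 1060 CPM in batch 1 and at 1014, 1073 and 1025 CPM in batch 2. In HHH it stood at 787.3 and 882 CPM in batch 1 and at 675.8, 645.6 and 661.7 CPM in batch 2. Every HHH library lay below every general library, and the HHH libraries of batch 2 lay below those of batch 1. SFRP1 fell from a mean of 1077 ± 79.3 to 730.5 ± 101 CPM (SD, n = 5 for both). Its fitted log2 fold change was -0.57 (SE 0.078, adjusted p by edgeR 4.68e-04). That is a fold of 1.48, just under the 1.5 needed for a call. In the fit with a replicate block its log2 fold change was -0.59 (adjusted p 0.00386), a fold of 1.51, and SFRP1 was called, which made 3 members called where 3.48% of all genes were. It was called likewise in the fits without general batch 1 replicate 2 (log2 -0.61) and without HHH batch 1 replicate 3 (log2 -0.61). In batch 1 alone it did not pass (log2 -0.45, adjusted p 0.224), and in batch 2 alone it was called (log2 -0.66, adjusted p 5.00e-04).

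SFRP2, the closest relative of SFRP1 among the members, moved the other way. It lies on chr4:153780591-153789083 (minus strand; ENSG00000145423). The general libraries had SFRP2 at 134.7 and 127.3 CPM in batch 1 and at 144.8, 146.7 and 134.6 CPM in batch 2. The HHH libraries had it at 173 and 173.8 CPM in batch 1 and at 202.6, 180.2 and 157.3 CPM in batch 2. The lowest HHH library was above the highest general library. SFRP2 rose from a mean of 137.6 ± 8.06 to 177.4 ± 16.4 CPM (SD, n = 5 for both), which is under 1.5-fold (fitted log2 fold change 0.37, SE 0.076, adjusted p by edgeR 0.00953). The log2 fold change was 0.40 in batch 1 (adjusted p 0.189) and 0.33 in batch 2 (adjusted p 0.0422). The pass was lost without a batch term (adjusted p 0.110) and on the authors' log2 table, where SFRP2 had a log2 fold change of 0.23 (adjusted p 0.315) and the median of all genes was -0.12, so that it stood 0.35 above that median.

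With both moving in opposite directions, the balance of the highly expressed pair differed between the populations. Per kb of exon, the level of SFRP1 was 3.31 ± 0.341 times that of SFRP2 in general and 1.75 ± 0.298 times in HHH (SD, n = 5 each). The ratio ranged from 2.96 to 3.80 over general libraries and from 1.41 to 2.14 over HHH libraries, without overlap. SFRP1 made up 75.0% ± 2.01 of the summed per-length level of the 8 members in general and 61.7% ± 4.02 in HHH. SFRP2 made up 22.8% ± 1.69 in general and 35.8% ± 3.79 in HHH, and the summed level was 303.3 ± 15.8 against 249.3 ± 21.9 CPM per kb. These ratios describe members chosen with earlier results known and were not tested.

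**Figure D2:**
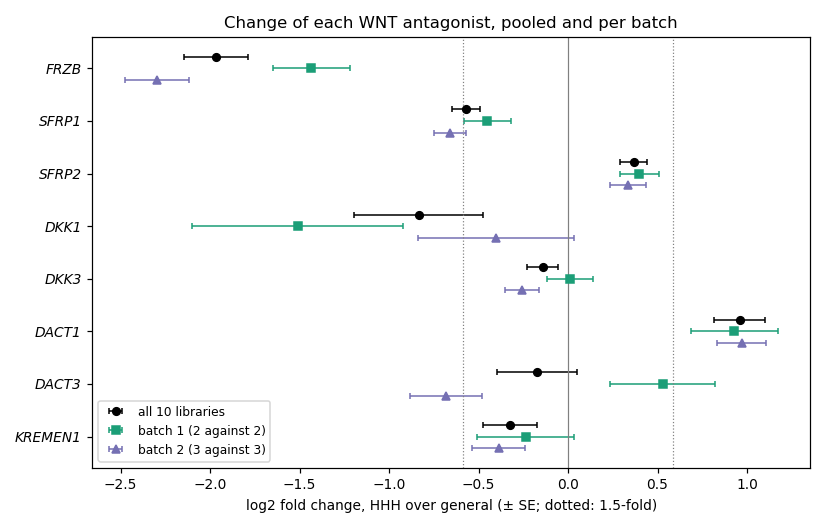
Log2 fold change of HHH over general for each member with its standard error, from the fit of all 10 libraries (black) and from batch 1 alone (green) and batch 2 alone (purple), with dotted lines at 1.5-fold. FRZB lies left of the line in all 3 fits and DACT1 right of it, SFRP1 lies near the line, and DACT3 changes side between the batches.

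DKK1, the Dickkopf protein that binds LRP5 and LRP6, was close to the floor. Its gene lies on chr10:52314281-52318042 (plus strand; ENSG00000107984), and 10.2% of its exonic bases are shared with PRKG1-AS1 on the other strand. The general libraries had 27 and 13 counts in batch 1 and 7, 14 and 11 counts in batch 2. The HHH libraries had 6 and 4 counts in batch 1 and 5, 11 and 8 counts in batch 2. The populations overlapped in batch 2 and did not in batch 1, where general replicate 1 was the highest of all libraries. Mean levels were 0.236 ± 0.109 CPM for general and 0.127 ± 0.0422 CPM for HHH (SD, n = 5), and a difference was not detectable at this depth (log2 fold change -0.83, SE 0.36, adjusted p by edgeR 0.207). PRKG1-AS1 had a log2 fold change of -0.39 (adjusted p 0.160).

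DKK3 is a divergent member of the Dickkopf family whose part in WNT signalling is less clear than that of DKK1. It lies on chr11:11956207-12009769 (minus strand; ENSG00000050165). In the general population DKK3 stood at 24.7 and 27.5 CPM in batch 1 and at 22.8, 25.9 and 22.6 CPM in batch 2. In HHH it stood at 25.02 and 27.8 CPM in batch 1 and at 20.01, 21.9 and 18.1 CPM in batch 2. The populations overlapped in batch 1, while in batch 2 the HHH libraries were all lower. Over all libraries the log2 fold change was -0.14 (SE 0.085, adjusted p by edgeR 0.364), and it was 0.011 in batch 1 and -0.26 in batch 2 (adjusted p 0.983 and 0.0940). In GENCODE 44, 47.5% of its exonic bases overlap USP47 on the other strand. No source gives the strand setting of the counting, so reads of the pair cannot be told apart there if those bases were counted. The authors' own per-length values imply a DKK3 of 5.12 kb, and whether that shorter length held the shared bases is not known. USP47 itself had a log2 fold change of -0.053 (adjusted p 0.733).

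KREMEN1, the transmembrane receptor that joins DKK1 in removing LRP6 from the cell surface, lies on chr22:29073035-29168333 (plus strand; ENSG00000183762). General libraries had KREMEN1 at 4.04 and 3.60 CPM in batch 1 and at 5.34, 5.53 and 5.51 CPM in batch 2. HHH libraries had it at 2.38 and 4.14 CPM in batch 1 and at 4.69, 4.73 and 3.16 CPM in batch 2. HHH was below general in all libraries of batch 2, and in batch 1 its replicate 3 lay above both general libraries. The log2 fold change was -0.32 (SE 0.15, adjusted p by edgeR 0.235), and without HHH batch 1 replicate 3 it was -0.46 (adjusted p 0.0461). With the replicate block the adjusted p was 0.0688.

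DACT1 and DACT3 belong to a small family of cytoplasmic proteins that bind Dishevelled, and DACT1 is known as an antagonist of beta-catenin signalling. DACT1 lies on chr14:58633967-58648321 (plus strand; ENSG00000165617), with 8.25% of its exonic bases shared with LINC01500 on the same strand. Among general libraries DACT1 was at 4.66 and 8.13 CPM in batch 1 and at 8.22, 7.38 and 6.60 CPM in batch 2. Among HHH libraries it was at 12.9 and 11.5 CPM in batch 1 and at 17.0, 15.1 and 11.7 CPM in batch 2. All HHH libraries were above all general libraries, and general batch 1 replicate 1 was the lowest. DACT1 rose from a mean of 6.997 ± 1.46 to 13.6 ± 2.36 CPM (SD, n = 5 for both). Its fitted log2 fold change was 0.96 (SE 0.14, adjusted p by edgeR 8.67e-04), and it passed the adjusted p with each of the 10 libraries left out. Its log2 fold change was 0.93 in batch 1 (adjusted p 0.171) and 0.97 in batch 2 (adjusted p 5.65e-04), and the difference between them was 0.041 (SE 0.29).

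DACT3 did not follow DACT1. It lies on chr19:46647551-46661182 (minus strand; ENSG00000197380) and had 32 to 71 counts per library. DACT3 in the general libraries was at 0.903 and 0.905 CPM in batch 1 and at 1.02, 1.12 and 1.07 CPM in batch 2. DACT3 in the HHH libraries was at 1.52 and 1.10 CPM in batch 1 and at 0.755, 0.691 and 0.565 CPM in batch 2. HHH was above general in every library of batch 1 and below it in every library of batch 2. The pooled log2 fold change was -0.17 (SE 0.22, adjusted p by edgeR 0.704), made up of 0.53 in batch 1 (adjusted p 0.506) and -0.68 in batch 2 (adjusted p 0.0421). The difference between the batches was -1.21 (SE 0.32) and did not pass the interaction test (adjusted p by edgeR 0.0973), nor did that of any other member, where 0.777% of all genes passed. DACT3 and FRZB were the 2 members with an unadjusted interaction p under 0.05 in edgeR. In DESeq2 0 members passed, but it gave DACT3 and DKK1 no adjusted p, so it says nothing on those genes. In batch 2 alone 4 members were called, FRZB, SFRP1 and DACT3 lower and DACT1 higher, where 4.90% of all genes were called.

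Per kb of exon the members spanned a wide range of expression. In general the mean level was 227.5 CPM per kb for SFRP1, 68.9 for SFRP2, 2.35 for FRZB, 2.06 for DKK3, 1.53 for DACT1, 0.599 for KREMEN1, 0.184 for DACT3 and 0.106 for DKK1. In HHH it was 154.3 CPM per kb for SFRP1, 88.9 for SFRP2, 2.97 for DACT1, 1.89 for DKK3, 0.581 for FRZB, 0.476 for KREMEN1, 0.169 for DACT3 and 0.0574 for DKK1. On the GENCODE 44 lengths FRZB thus had rank 3 in general and rank 5 in HHH, and DACT1 the reverse. FRZB overlapped both DKK3 and DACT1 in general, with libraries from 1.47 to 3.39 CPM per kb against 1.89 to 2.30 for DKK3 and 1.02 to 1.79 for DACT1. In HHH FRZB overlapped KREMEN1, with 0.547 to 0.663 against 0.296 to 0.590 CPM per kb. On these lengths only, DACT1 lay above DKK3 in all HHH libraries. The place of DKK3 depended on its length, which is 11.96 kb over all GENCODE 44 exons and 5.12 kb as implied by the authors' own per-length values. On the implied lengths DKK3 had rank 3 in both populations, with means of 4.82 CPM per kb in general and 4.405 in HHH. The mean of FRZB in general (1.93, rank 4) and that of DACT1 in HHH (2.98, rank 4) then lay below DKK3.

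**Figure D3:**
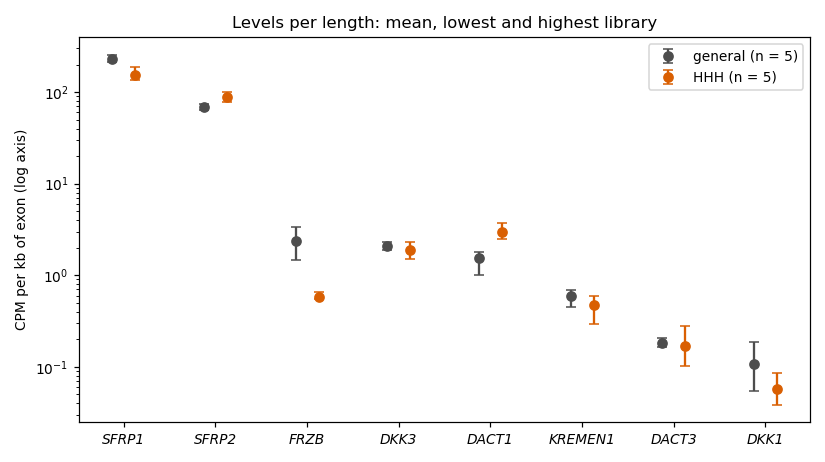
Level of each member per kb of exon (CPM per kb, log axis) in general (grey) and HHH (orange), with the mean of 5 libraries as a point and the lowest and highest library as the ends of the bar. SFRP1 and SFRP2 stand far above the others in both populations, and FRZB and DACT1 exchange places between them.

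The genes whose levels followed FRZB most closely across the 10 libraries, after the mean of each batch was taken off, were CLU, which encodes the secreted chaperone clusterin (Pearson r 0.995), and NRP2, a neuropilin receptor of semaphorins and VEGF (r 0.991). For DACT1 they were the kinase gene CILK1 (r 0.990) and the dipeptidase gene DPEP1 (r 0.987). They were the highest of 15661 candidates, the libraries share the split into populations, and the values are given as a description.

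The rest of the pathway was read from lists. Their called genes were lower in HHH, as were 551 of the 701 genes called in the whole table, so the direction is not particular to the lists, and 2.34% of all genes tested were called lower. Of 20 other WNT antagonists 16 were tested and 2 were called, both lower. DKK2, a Dickkopf relative of DKK1, went from 0.387 ± 0.114 to 0.0970 ± 0.0691 CPM (log2 fold change -1.98, adjusted p 0.00394). NOTUM, a secreted enzyme that removes the lipid from WNT ligands, went from 0.440 ± 0.170 to 0.151 ± 0.0556 CPM (log2 -1.52, adjusted p 0.00283). Their HHH levels were close to the floor of detection. DKK2 and NOTUM passed in 10 of 10 fits that left out a library. The filter on low counts asked for about 10 counts in as many libraries as a population had. Both genes were therefore kept mainly through their general libraries, which made a lower level in HHH the call most open to them in those fits too. In batch 1 alone DKK2 did not pass (log2 -1.78, adjusted p by edgeR 0.284) and NOTUM had no value. Of these antagonists SFRP5, SHISA2 and IGFBP4 passed the adjusted p alone, the first pair lower and IGFBP4 higher. With the replicate block SFRP5 and SHISA2 no longer passed (adjusted p 0.0527 and 0.0577), and they passed in 3 and 2 of the 10 fits that left out a library, while IGFBP4 passed in all 10. The block raised the count of called antagonists in this list from 2 to 3. Among 20 cytoplasmic and nuclear inhibitors, such as AXIN and TLE genes, 0 were called by edgeR, by DESeq2 or by limma with voom, 4 had an unadjusted p under 0.05 in edgeR, and TLE4 passed the adjusted p alone (log2 -0.35, adjusted p 0.0329, in 2 of 10 fits with a library left out). With the replicate block 1 of them was called. The median log2 fold change was -0.18 over the other antagonists and -0.019 over the cytoplasmic and nuclear inhibitors, against 0.016 over all genes.

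Of 19 WNT ligands 8 were tested and 3 were called lower, WNT4 (log2 -2.12), WNT2B (log2 -1.03) and WNT5A (log2 -0.60), the last of which passed in 7 of 10 fits with a library left out. With the replicate block 4 ligands were called. Of 23 receptors and R-spondins 21 were tested and 3 were called lower, the Frizzled receptors FZD8 (log2 -1.01) and FZD5 (log2 -0.99) and the R-spondin receptor LGR4 (log2 -0.62), while PTK7 passed the adjusted p alone (log2 -0.30). The study names WNT4, FZD3, FZD5 and FZD8 as lower on these samples. FZD3 stood at 141.5 ± 26.7 CPM in general and 140.4 ± 15.0 CPM in HHH (log2 0.0012, adjusted p 0.995). Of 18 beta-catenin target genes 14 were tested and 2 were called lower, TNFRSF19 (log2 -2.96) and again NOTUM. MYC passed the adjusted p alone in the other direction, from 32.3 ± 3.06 to 44.3 ± 4.95 CPM (log2 0.45, adjusted p 0.00261), and did so in 10 of 10 fits with a library left out. The list's median was -0.027. AXIN2 and LEF1 were among the target genes that were not called. TBXT, given below with the mesendoderm markers, was among those not tested in the main fit.

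**Figure D4:**
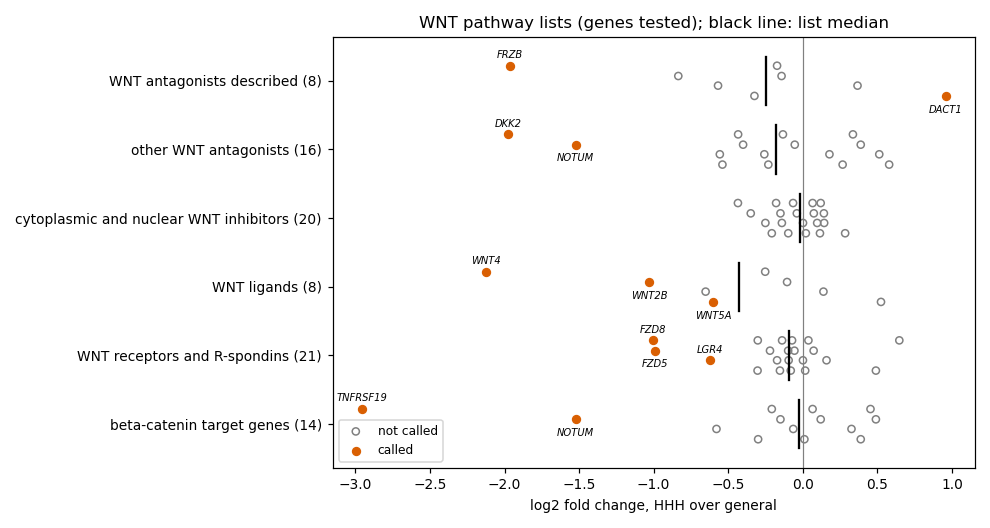
Log2 fold change of HHH over general for the tested genes of each WNT pathway list, with called genes filled and named, the others open, and a black line at the list's median. Called genes other than DACT1 lie left of 0, and NOTUM stands in 2 lists.

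Of the markers of other cell types, the neural ectoderm list held the most called genes. Of its 10 genes 5 were tested and 3 were called lower in HHH (LHX5, DLK1 and SOX1, log2 -5.57, -2.77 and -1.39), where 2.34% of all genes were. SOX1 passed in 2 of 10 fits with a library left out. LHX5 and SOX1 had HHH means of 0.145 and 0.149 CPM and were kept by the filter mainly through their general libraries. That filter favoured calls of lower in this list. The other two were not called, SIX6 with a log2 fold change of 1.05 (adjusted p 0.0662) and PAX6 with -0.15 (adjusted p 0.665). The summed level of the list was 5.41 to 15.7 CPM in general and 1.82 to 2.74 CPM in HHH, without overlap, and LHX5 alone had a mean of 6.81 CPM in general and 0.145 CPM in HHH. EMX2 was at 0 in all HHH libraries, but its general mean of 0.0221 ± 0.0316 CPM was under the floor of detection too, and it was not tested. SIX3, also untested in the main fit, went from 0.5155 ± 0.262 to 0.0209 ± 0.031 CPM. In batch 2 alone SIX3 was called lower (log2 -4.17, adjusted p by edgeR 2.9e-04). Of 10 fibroblast and mesenchymal markers 6 were tested, THY1 was called higher and COL1A1 lower. Their sums were 274.1 to 294.1 CPM in general and 301.8 to 357.3 CPM in HHH, with THY1 going from 141.2 to 216.4 CPM, COL1A1 from 24.2 to 12.8 CPM and COL1A2 from 105 to 86.4 CPM (log2 -0.28, adjusted p 0.106). DCN had 3 counts or fewer in every library, and the means of COL3A1, LUM and TWIST1 were near the floor of detection or under it. THY1 was the largest part of the sum in both populations, and the higher sum in HHH followed THY1, not the collagen genes. Whether THY1 marks fibroblast or mesenchymal cells in these cultures was not tested. Of 7 neural crest markers 5 were tested and SOX10 was called lower (log2 -0.84, passing in 5 of 10 fits with a library left out). FOXD3 passed the adjusted p alone in the other direction, from 10.8 ± 1.28 to 15.2 ± 5.67 CPM (log2 0.44, adjusted p by edgeR 0.0391). It passed in 3 of 10 fits with a library left out. The sums of the list overlapped, with 19.0 to 22.5 CPM in general and 17.4 to 30.5 CPM in HHH. Of 10 mesendoderm markers 2 were tested and 0 were called by edgeR, DESeq2 or limma with voom (1 at an unadjusted p under 0.05 in edgeR), with overlapping sums of 1.96 to 3.33 and 2.05 to 3.04 CPM. TBXT was not tested in the main fit and went from 0.350 ± 0.187 to 0.102 ± 0.0455 CPM. In batch 2 alone TBXT was called lower (log2 -1.845, adjusted p by edgeR 0.00269). FOXA2, also untested in the main fit, was higher in HHH in batch 1 alone without passing (log2 1.60, adjusted p by edgeR 0.359). The part of these cell types in the differences of FRZB, SFRP1, SFRP2 and DACT1 was not tested.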

How the data were processed

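RNA was sequenced with TruSeq RNA libraries per the labels. The authors deposited whole fragment counts per Ensembl gene without normalization, and a table of log2 values, treated here as a score, that is scaled by TMM and length and has equal batch means per gene, so it served only as an alternative. The submitters' processing notes list CASAVA 1.8.2, R 3.2.2, limma 3.26.9 and GRCh37. The aligner, the counting tool and the strand setting are not given in the sources used here. Symbols, positions and exon lengths came from GENCODE 44 (GRCh38) by identifier. Identifiers without a match, 7.44% to 20.3% of the counts of a library, stayed in library sizes and tests.

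Genes were kept by filterByExpr (minimum count 10, grouped by population). Counts were scaled by TMM (factors 0.832 to 1.18) and tested in R 4.3.3 with edgeR 4.0.16 (quasi-likelihood F test, two-sided), with batch as an additive term, all 10 libraries and Benjamini-Hochberg adjustment over 23552 genes. A standard error is the log2 fold change divided by the square root of F. Batches were also fitted alone, and the interaction of batch and population was tested. The script was tested on simulated data. CPM per kb is CPM divided by the length of all exons. Likeness used log2 CPM (prior count 2) of genes averaging 1 CPM or more.

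All members were named, and of each list the called genes with the largest changes, up to 4. Genes of the lists that were not called were named after their values were seen. The members and lists were chosen with earlier results of these data known. In batch 2 the libraries with the same replicate number deviated together (r 0.240, 0.143 and 0.113), so the numbers were taken to pair the libraries. These r are small and the libraries few, so the pairing is not established, and the main fit left it out. In batch 1, with 2 libraries a population, deviations mirror each other and the check says nothing. The numbers entered as a block, as an alternative. In batch 1 only replicate 2 is present in both populations. General replicate 1 and HHH replicate 3 of batch 1 have no partner and add nothing to the population effect of this fit. That effect therefore rests mostly on batch 2. Others were no batch term, RLE, upper quartile or library size scaling, no filter, at least 1 CPM in 5 libraries, DESeq2 1.42.0, limma 3.58.1 with voom or on the deposited log2 values, and each library left out.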

Additional observations from a re-analysis of the deposited data

Results flagged for a closer look

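FRZB in HHH batch 2 replicate 3 stood at 1.75 CPM, apart from the other 4 HHH libraries at 1.44 to 1.52 CPM, and it remained below every general library. It was 1 of 16 groups of 5 libraries examined in this way, and chance sets a library apart in about 1 of 20 such groups. For DACT3, every HHH library lay above general in batch 1 and below it in batch 2, a difference of -1.21 between the log2 fold changes of the batches, which did not pass the interaction test (adjusted p by edgeR 0.0973, and 0.0943 to 0.256 with a library left out).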

How the results depend on the processing

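FRZB kept its direction and its pass of the adjusted p under all 22 alternatives, with log2 fold changes of -2.30 to -1.43, and DACT1 under 21, with 0.83 to 1.10, the exception being batch 1 alone. The number of members called was 2. Batch 1 alone gave 1 and batch 2 alone gave 4, and leaving out a library gave 2 to 3. It was 3 with the replicate block, upper quartile or library size scaling and on the deposited log2 values, each time with SFRP1 added. Over all genes 701 were called, against 151 without a batch term, 1114 without a filter, 136 from batch 1, 1178 from batch 2, and 523 to 963 with a library left out. On the deposited log2 values the median of all genes was -0.12 and 4.32% of calls were higher in HHH, against 21.4% in the main fit, and without a filter 33.3% were. In batch 1 alone the log2 fold changes reversed for DKK3 (0.011) and DACT3 (0.53). With the replicate block 1 of the cytoplasmic and nuclear inhibitors was called in place of 0, 3 other antagonists in place of 2 and 4 ligands in place of 3, and the block changed the call of no member but SFRP1. No member passed the interaction test under any library left out or under DESeq2, which gave DKK1 and DACT3 no adjusted p. DKK1 had no adjusted p under DESeq2 and no value with at least 1 CPM in 5 libraries. The causes were not tested.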
